A study of Mus musculus with 8 samples.

Results

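The chromatin around 9 mouse genes for inflammatory cytokines, Il6, Il10, Tnf, Lta, Ltb, Il1b, Il1a, Il15 and Il18, was examined by ATAC-seq in conventional dendritic cells of the spleen. ATAC-seq uses the transposase Tn5 to tag DNA that is accessible in the nucleus, and the deposited lists hold the summit of each called peak. Each locus was the gene span on mm10 with 50 kb on both sides. Tnf, Lta and Ltb lie next to each other and were taken as 1 locus, which gave 7 loci for the 9 genes, out of 21887 protein-coding genes annotated. Of the 600268 deposited summits, 672 lay in these loci. There were 75 and 80 of them in KO cDC2, 72 and 70 in WT cDC2, 89 and 101 in KO cDC1, and 93 and 92 in WT cDC1.

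The 8 libraries formed 4 groups of 2. Type 2 cells (cDC2) had been sorted as XCR1-CD11b+ and type 1 cells (cDC1) as XCR1+CD11b-, in each case among lineage-negative CD11c+MHCII+CD64- spleen cells. Mice labelled HDAC1 Mx1-Cre are called KO and mice labelled HDAC1 floxed are called WT. Both genotypes received poly I:C to bring about recombination, and cells were taken 2 weeks later, so the WT groups share the floxed gene and the poly I:C, and no group without poly I:C was analysed here. Mx1-Cre is driven by an interferon-inducible promoter that is active in many cell types, so deletion is not limited to dendritic cells. The labels give neither the age of the mice nor whether the libraries of a group came from separate animals, so each p-value reflects the scatter among the libraries at hand, which may be technical.

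Dendritic cells sense microbes and release cytokines that set the course of an immune response. Interleukin-6, tumour necrosis factor (Tnf) and the interleukin-1 cytokines promote inflammation, and their genes are switched on within a short time after sensing, largely through the transcription factor NF-kB. Interleukin-10 restrains inflammation. Interleukin-15 sustains natural killer cells and memory T cells, and interleukin-18 promotes interferon-gamma release by them. Accessible sites around such genes include promoters at the start and enhancers at a distance, and an accessible site does not by itself show that a gene is transcribed.

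The promoters of Il6, Tnf and Ltb are shown because summits lay at or next to all 3 starts, and their rank differed between the subsets at Tnf while no difference was detected at Il6. Each run is the 250 bases before the gene start, 5′ to 3′ on the strand of the gene, from RefSeq on build GRCm38.p6. Capitals mark matches, on either strand, to the NF-kB motif, the AP-1 motif TGANTCA, the CRE core TGACGT, the PU.1 core GAGGAA or the TATA-box motif TATAAA, and no marked matches overlap.
Il6, chr5:30012864-30013113, plus strand: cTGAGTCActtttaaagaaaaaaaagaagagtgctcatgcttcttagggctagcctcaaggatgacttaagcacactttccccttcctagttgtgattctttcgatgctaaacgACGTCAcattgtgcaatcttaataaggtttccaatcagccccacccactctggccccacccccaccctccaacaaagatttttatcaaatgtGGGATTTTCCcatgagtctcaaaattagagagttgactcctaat
Tnf, chr17:35202008-35202257, minus strand: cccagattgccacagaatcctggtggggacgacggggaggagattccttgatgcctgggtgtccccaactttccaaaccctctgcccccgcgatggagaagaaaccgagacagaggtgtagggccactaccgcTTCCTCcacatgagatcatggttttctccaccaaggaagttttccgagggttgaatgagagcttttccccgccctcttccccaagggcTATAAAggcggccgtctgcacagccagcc
Ltb, chr17:35194257-35194506, plus strand: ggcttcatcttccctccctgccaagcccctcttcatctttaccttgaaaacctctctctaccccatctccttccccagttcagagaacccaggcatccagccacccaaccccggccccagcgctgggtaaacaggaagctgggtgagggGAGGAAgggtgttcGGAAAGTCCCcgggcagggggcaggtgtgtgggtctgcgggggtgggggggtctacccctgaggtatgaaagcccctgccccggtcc

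In the Il6 run the NF-kB match lay 44 to 35 bases before the start, the AP-1 match 249 to 243 bases before it and the CRE core match 136 to 131 bases before it. In Tnf a TATA box match lay 29 to 24 bases and a PU.1 core match 117 to 112 bases before the start. In Ltb an NF-kB match lay 87 to 78 bases and a PU.1 core match 101 to 96 bases before the start. Among the same 250 bases of 17492 genes, 7.57% held the NF-kB motif, 6.22% AP-1, 7.56% the CRE core, 22.1% the PU.1 core and 12.4% the TATA box. A match says only that these letters are there. The Tnf promoter held 10 CpG dinucleotides, Ltb 6 and Il6 3, against a median of 10 over all these promoters. Summits lay between 136 bases before the Tnf start and the start itself in all 8 libraries, and between 74 bases before and 42 bases after the Ltb start in 7. At Il6 no summit lay in the 250 bases shown, and all 8 libraries had one just past the start. RefSeq runs for Il10 and Il15 were not used here.

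The deposited lists held between 61737 and 78296 summits in cDC2 and between 74963 and 96031 in cDC1. They were cut to the 61737 summits of best score in each library, which left 70, 72, 70 and 70 summits in the loci in cDC2 and 77, 70, 80 and 83 in cDC1. Read depth is unknown, so no counting interval or detection limit can be given, and a locus without a summit is not shown to be closed. Summits around marker genes followed the sort in part. Of 9 cDC1 markers, Cd8a, Irf8, Cadm1 and Tlr3 had fewer summits in cDC2 and Clec9a had more. The other 4 (Xcr1, Batf3, Itgae and Wdfy4) did not pass the threshold. Of 9 cDC2 markers, Clec4a4, Zeb2, Dtx1 and Esam had more in cDC2, and 5 (Sirpa, Itgam, Irf4, Cd4 and Clec10a) did not pass. The genes of the 2 sorting markers, Xcr1 for XCR1 and Itgam for CD11b, were thus not called. Among all genes tested 11.8% passed. The markers of other cells had 0 of 6 T cell and 0 of 4 natural killer cell genes past the threshold, while Ly6c2 and Lyz2 of 8 monocyte and macrophage genes, Ms4a1 of 5 B cell genes, Ccr9 of 4 plasmacytoid genes and Ly6g of 4 neutrophil genes were lower in cDC2. Summed over the list, monocyte and macrophage genes had 52 to 61 summits in cDC2 and 61 to 69 in cDC1, B cell genes 33 to 36 in cDC2 and 33 to 38 in cDC1, plasmacytoid genes 48 to 52 in cDC2 and 42 to 50 in cDC1, and neutrophil genes 22 to 28 in cDC2 and 23 to 31 in cDC1. T cell genes had 44 to 52 in cDC2 and 42 to 50 in cDC1, and natural killer cell genes 23 to 27 in cDC2 and 23 to 26 in cDC1. None of these markers was at 0 in any library except the T cell gene Bcl11b. The part of other cells in the results below was not tested. Hdac1, the targeted gene, had 9.5 ± 1.29 summits within 50 kb in KO and 11 ± 1.41 in WT (SD, n = 4), and a summit count over such a window does not check the deletion.

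How many accessible sites surround each cytokine gene in cDC2 and in cDC1 was asked first. Il6 had fewer summits in cDC2 than in cDC1, and none of the other 8 genes differed past the threshold of 0.05 on the adjusted p. Il6 had 6 summits in every cDC2 library, against 9 and 7 in KO cDC1 and 11 and 10 in WT cDC1, so the subsets did not overlap. The difference was -0.53 on the scale of log2(summits + 1), with a standard error (SE) of 0.127 and an adjusted p of 0.0232 in limma over 17729 genes. Among all genes tested 11.8% were called, 5.84% as higher and 5.93% as lower in cDC2, and counts did not overlap at 13.1%, so 1 called member of 9 is close to that background. With all deposited summits 245 genes were higher and 2077 lower in cDC2, around a median difference of -0.16, and Il6 then had 6 in every cDC2 library against 9, 11, 12 and 11 in cDC1. The Il6 call was lost with the best 30868 summits (-0.21, adjusted p = 0.366) and with 100 kb on both sides (-0.35, adjusted p = 0.0867). It was also lost without KO cDC2 replicate 1 (adjusted p = 0.0544) or 2 (0.0545), KO cDC1 replicate 1 (0.0784) or WT cDC1 replicate 1 (0.0673).

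Il10 had 10 and 9 summits in KO cDC2 and 9 and 12 in WT cDC2, against 12 and 10 in KO cDC1 and 11 and 14 in WT cDC1 (difference -0.21, SE 0.144, adjusted p = 0.371). It was lower in cDC2 past the threshold with 10 kb on both sides (-0.89, adjusted p = 0.00381) and when each summit counted only for its nearest gene (-0.64, adjusted p = 0.0419). The Tnf/Lta/Ltb locus had 19 and 20 in KO cDC2 and 18 and 18 in WT cDC2, against 22 and 19 in KO cDC1 and 22 and 20 in WT cDC1 (-0.14, SE 0.12, adjusted p = 0.497). For Tnf, Lta and Ltb taken singly the windows held the same summits. The ranges of cDC2 and cDC1 overlapped at both loci. Il15 had 7 and 7 in KO cDC2 and 6 and 8 in WT cDC2, against 9 and 9 in KO cDC1 and 9 and 8 in WT cDC1 (-0.29, SE 0.13, adjusted p = 0.174). Il1b had 14 and 12 in KO cDC2 and 13 and 12 in WT cDC2, against 13 and 10 in KO cDC1 and 12 and 12 in WT cDC1 (0.11, SE 0.131, adjusted p = 0.625). These 2 loci overlapped as well. Il1a had 9 and 9 in KO cDC2 and 9 and 8 in WT cDC2, against 4 and 6 in KO cDC1 and 8 and 11 in WT cDC1 (0.31, SE 0.153, adjusted p = 0.211). Il18 had 10 and 13 in KO cDC2 and 13 and 11 in WT cDC2, against 10 and 11 in KO cDC1 and 11 and 12 in WT cDC1 (0.082, SE 0.133, adjusted p = 0.737). At Il1a the cDC1 libraries spread over 4 to 11 and enclosed all cDC2 values. Over the 9 members the median difference was -0.14, against a median of 0 over all genes.

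**Figure D1:**
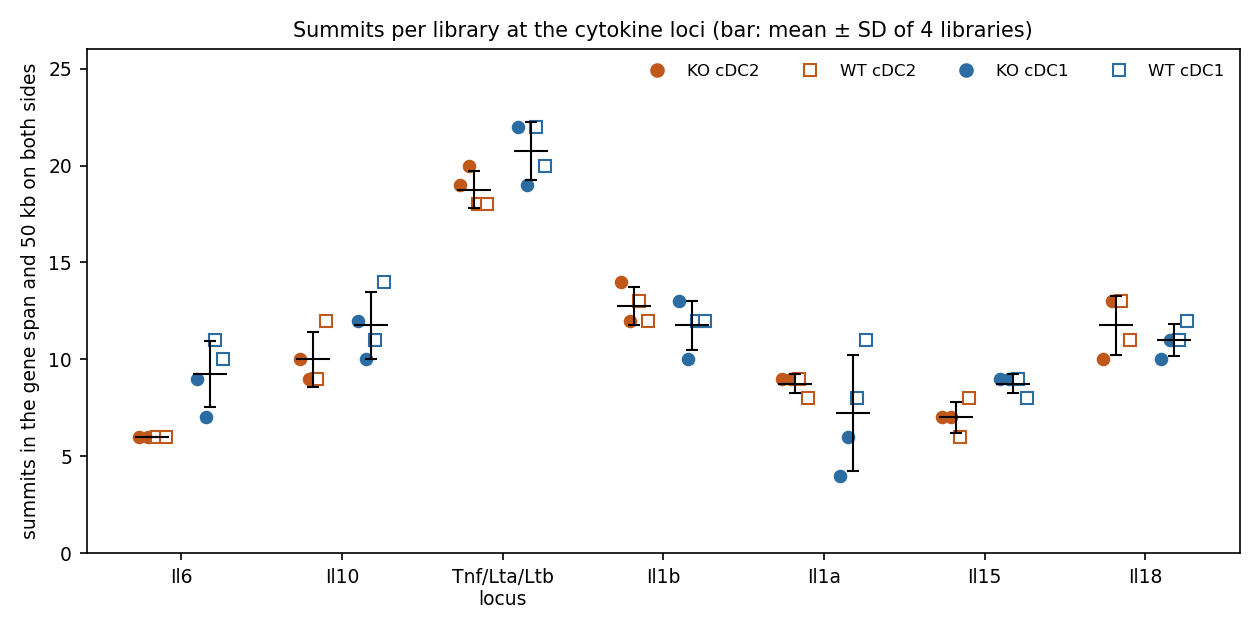
Summits per library at each cytokine locus (y axis: number of summits in the gene span and 50 kb on both sides, lists of equal length). Filled circles are KO and open squares WT, cDC2 stands left of cDC1, and bars give the mean and SD of 4 libraries. All 4 cDC2 libraries lie at 6 summits at Il6, below the cDC1 libraries at 7 to 11, and the subsets overlap at the other loci.

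The plot of summits per locus shows how small these numbers are, since a difference of 1 summit moves a value by a visible step. Summits of all libraries that lay within 250 bp of each other were therefore chained into sites, numbered along the chromosome within each locus. The loci held 118 sites, 14 at Il6, 19 at Il10, 29 at Tnf/Lta/Ltb, 18 at Il1b, 14 at Il1a, 10 at Il15 and 20 at Il18, with 6 sites in the windows of both Il1b and Il1a. Of these, 39 had a summit in all 8 libraries, 19 in 1 library and 60 in between. Among 112443 sites genome-wide, 26.4% were found in all 8. A site was given a percentile in each library, with 100 for the summit of best score in that library. Sites found in all 8 libraries were tested by rank, in limma on the normal score of the percentile (the matching quantile of a standard normal distribution), over 29645 sites. The other 79 sites of the loci had no such test. As an alternative, missing summits were set to the bottom rank, which took in 41 of them and called 4 as higher and 8 as lower in cDC2. That includes the 8 sites described below as found in a single subset, where the bottom ranks themselves set the difference. The others called were Tnf/Lta/Ltb site 22 (3.48), Il1b site 1 (2.79) and Il18 site 9 (3.17), higher in cDC2. Tnf/Lta/Ltb site 4 (-1.92) was called as lower. Bottom ranks enter those differences as well. Over all 61978 sites of that alternative 14.5% were called as higher and 16.7% as lower.

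By rank, 14 of the 39 sites tested differed between the subsets, 3 higher and 11 lower in cDC2. Among all sites 27.8% were called, 15% as higher and 12.7% as lower. The median difference in normal score was -0.17 over the 39 sites, against 0.029 over all sites. The percentiles of the subsets did not overlap at 11 of the 39, 10 of them called, against 25.1% of all sites. All 14 had the same direction within KO and within WT. Of the 14, 7 lay outside every protein-coding span, 5 inside a gene that is no member and 2 inside a member. Counted by presence, 7 sites were found in all 4 cDC1 libraries and missing from all 4 of cDC2, against 4.33% of all sites. The opposite pattern was held by 1 site, against 2.42%. Counted more loosely, there were 27 sites without a summit in cDC2 (21.9% of all sites) and 15 without one in cDC1 (23.6%).

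At Il6, the strongest difference lay far upstream, while no difference in rank was detected at the start of the gene. Il6 site 1 (chr5:29972867-29972970), 40.2 kb upstream of the start and outside any protein-coding gene, stood at percentile 20.1 and 40.1 in KO cDC2 and 25.0 and 5.46 in WT cDC2. It stood at 79.2 and 78.6 in KO cDC1 and at 78.9 and 76.9 in WT cDC1. The cDC1 libraries lay within a few percentiles of each other, far above every cDC2 library. The means were 22.7 ± 14.3 in cDC2 and 78.4 ± 1.04 in cDC1 (SD, n = 4), a difference in normal score of -1.63 (SE 0.254, adjusted p = 0.000108 in limma). The call held in the 13 alternatives that gave a value.

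Close to the Il6 start, a pair of sites had summits in cDC1 alone. Il6 site 7 (chr5:30011346-30011426), 1.73 kb upstream, had no summit in cDC2 and stood at 16.8 and 21.0 in KO cDC1 and at 31.4 and 35.6 in WT cDC1. Il6 site 8 (chr5:30011967-30012054), 1.10 kb upstream, again had none in cDC2 and stood at 36.3 and 21.3 in KO cDC1 and at 54.5 and 19.6 in WT cDC1. The nearest cDC2 summit was 1777 bp from site 7 and 1149 bp from site 8, also among all deposited summits. Both are weak to middling summits, and the pattern was lost in the best 30868. Il6 site 9 (chr5:30013203-30013288), at the start of the gene, stood at 62.2 and 61.0 in KO cDC2, 67.5 and 56.1 in WT cDC2, 68.6 and 54.7 in KO cDC1, and 62.1 and 66.2 in WT cDC1. The subsets overlapped there (61.7 ± 4.67 in cDC2 and 62.9 ± 6.09 in cDC1, difference -0.033, SE 0.181, adjusted p = 0.911).

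Inside Il6, summits were found in 3 cDC2 and 2 cDC1 libraries at 1 further site. Il6 site 10 (chr5:30014693-30014752), 1.61 kb past the start, stood at 54.8 and 47.5 in KO cDC2 and at 55.5 in WT cDC2 replicate 1, with no summit in replicate 2. In cDC1 it had summits in the WT libraries only, at 1.85 and 7.74. With missing summits at the bottom rank it did not pass (2.00, SE 0.985, adjusted p = 0.18). The best-ranked site of the locus was Il6 site 13 (chr5:30040035-30040082), inside the neighbour Tyms, a gene for thymidylate synthase. It averaged 77.9 ± 5.35 in cDC2 and 84.7 ± 5.68 in cDC1 (SD, n = 4, difference -0.27, SE 0.123, adjusted p = 0.106), and passed with all deposited summits (-0.36, adjusted p = 0.0396).

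**Figure D2:**
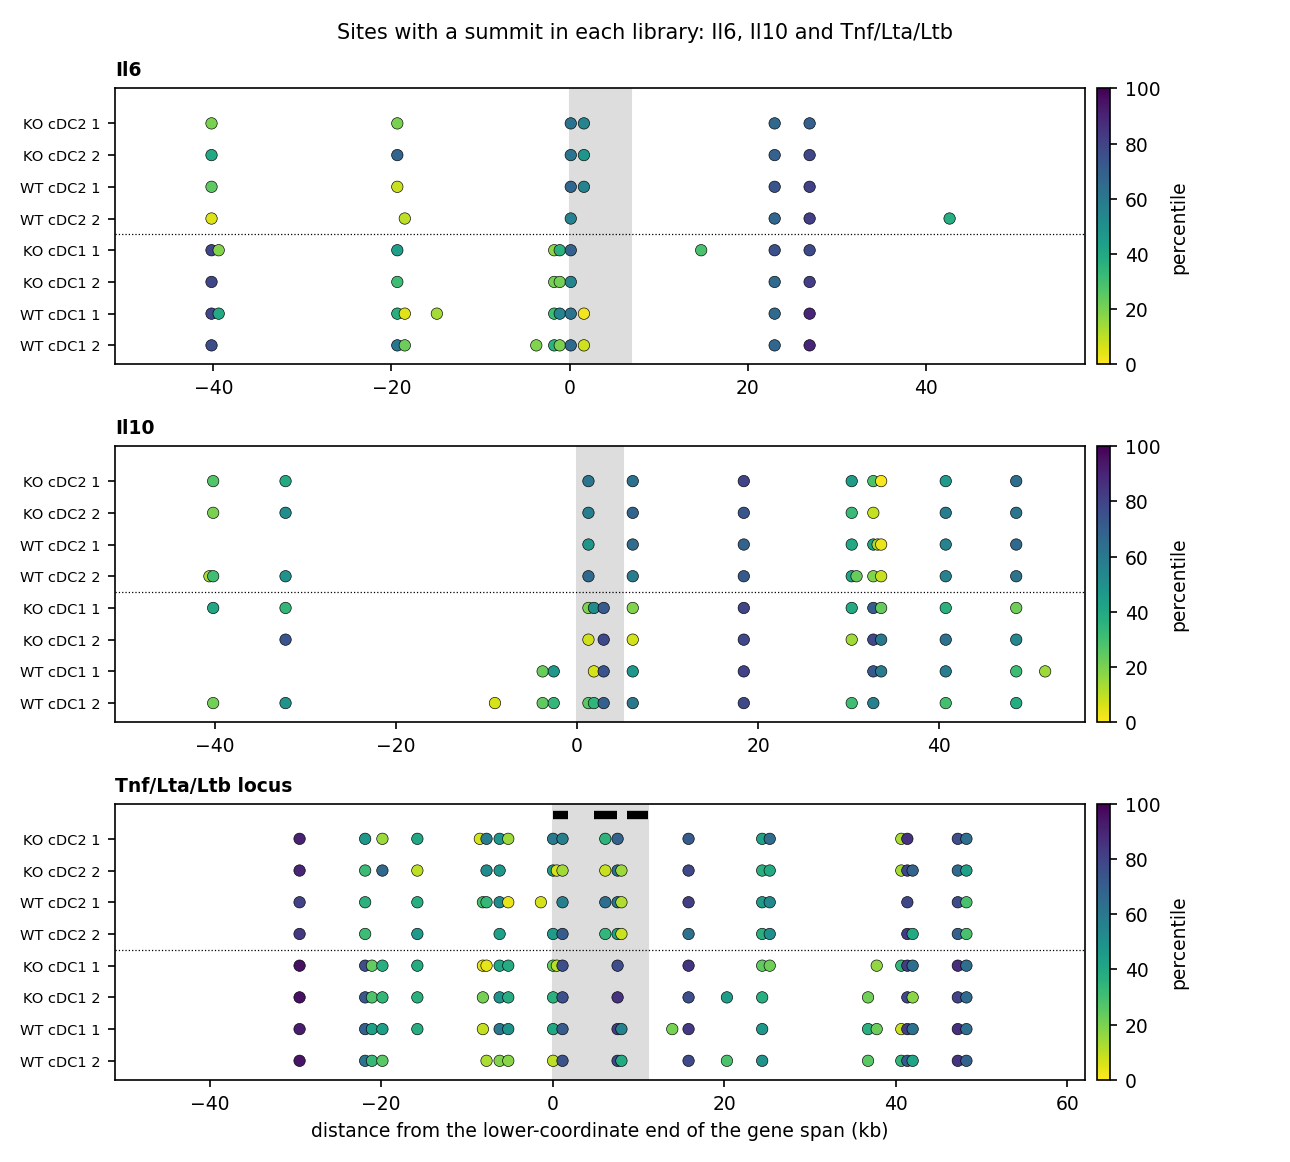
Sites with a summit at Il6, Il10 and Tnf/Lta/Ltb in each library, cDC2 rows above the dotted line and cDC1 rows below (x axis: distance in kb from the lower-coordinate end of the gene span, colour: percentile within the library). Grey marks the span, and the black bars in the lowest panel mark Ltb, Tnf and Lta from left to right. The leftmost Il6 site is pale in cDC2 (mean 22.7) and dark in cDC1 (mean 78.4), and a site inside Il10 has points in cDC1 rows alone.

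The map of Il6, Il10 and Tnf/Lta/Ltb shows that the differing sites stood among others shared by all libraries. Inside the gene, Il10 (chr1:131019845-131024970) had a site with summits in cDC1 alone and a middling site found in both subsets. Il10 site 9 (chr1:131022769-131022826) had no summit in any cDC2 library and stood at 71.6 and 78.1 in KO cDC1 and at 74.5 and 69.8 in WT cDC1. It was the best ranked of the 7 sites found in cDC1 alone, and the only one of them that kept the pattern in every alternative. The nearest cDC2 summit was 1593 bp away, and 1182 bp away among all deposited summits. Il10 site 7 (chr1:131021050-131021181) stood at 61.3 and 57.5 in KO cDC2 and at 48.0 and 66.4 in WT cDC2. In cDC1 it stood at 19.5 and 7.37 in KO and at 25.3 in WT replicate 2, with no summit in WT replicate 1. The 3 cDC1 values lay below all 4 cDC2 values. With the missing summit set to the bottom rank the difference was 2.03 in normal score (SE 0.813) and did not pass (adjusted p = 0.116), where 31.2% of 61978 sites were called.

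Beyond the gene, Il10 site 10 (chr1:131025927-131026090), 1.04 kb past the higher-coordinate end, stood at 62.7 and 67.7 in KO cDC2 and 65.0 and 58.3 in WT cDC2. It stood at 19.1 and 7.01 in KO cDC1 and at 46.7 and 60.0 in WT cDC1. It was higher in cDC2 (63.4 ± 3.98) than in cDC1 (33.2 ± 24.4, SD, n = 4, difference 0.89, SE 0.25, adjusted p = 0.0115), although WT cDC1 replicate 2 lay within the cDC2 range. The call was lost without WT cDC1 replicate 1 (adjusted p = 0.0539) and with all deposited summits (0.45, adjusted p = 0.119). Il10 site 14 (chr1:131052537-131052629), 27.6 kb beyond the same end, stood at 28.7 and 8.76 in KO cDC2 and 42.1 and 19.0 in WT cDC2. It stood at 70.3 and 78.2 in KO cDC1 and at 72.4 and 56.8 in WT cDC1. All cDC2 libraries lay below all cDC1 libraries (difference -1.27, SE 0.27, adjusted p = 0.00173), and the call held in the 13 alternatives that gave a value.

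Il10 site 18 (chr1:131068312-131068425) lay inside Mapkapk2, a gene for a kinase that acts in the p38 stress pathway and is known to stabilise cytokine mRNAs. It stood at 64.5 and 61.0 in KO cDC2 and 66.3 and 62.0 in WT cDC2, against 22.2 and 54.2 in KO cDC1 and 31.3 and 38.4 in WT cDC1. The subsets did not overlap (difference 0.70, SE 0.241, adjusted p = 0.034). The call rested on the full set of libraries. It was lost on leaving out any library other than KO cDC1 replicate 2, with adjusted p between 0.0541 and 0.13, with all deposited summits (0.43, adjusted p = 0.164) and among 61978 sites with missing summits at the bottom rank (adjusted p = 0.0609). The best-ranked Il10 site, site 11 (chr1:131038178-131038372), averaged 73.5 ± 4.76 in cDC2 and 78.9 ± 1.06 in cDC1 (difference -0.17, SE 0.134, adjusted p = 0.361).

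At Tnf/Lta/Ltb, 6 of the 10 sites tested were lower in cDC2 and none was higher, against 12.7% and 15% of all sites tested. Tnf, the archetype of its family, had its start covered by site 16 (chr17:35202007-35202143), which overlaps the promoter printed above. Tnf/Lta/Ltb site 16 stood at 68.8 and 63.6 in KO cDC2 and 61.5 and 43.4 in WT cDC2. It stood at 77.1 and 85.6 in KO cDC1 and at 82.1 and 79.2 in WT cDC1. Every cDC2 library lay below every cDC1 library (59.3 ± 11.1 in cDC2 and 81.0 ± 3.7 in cDC1, difference -0.64, SE 0.158, adjusted p = 0.00494), and the 13 alternatives that gave a value kept the call. Site 17 (chr17:35202454-35202592), 0.516 kb upstream of the start, had summits at 14.7 in KO cDC2 replicate 2 and at 12.1 and 8.13 in WT cDC2. In cDC1 it had summits in WT alone, at 55.5 and 39.3.

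Inside Tnf, by contrast, site 15 (chr17:35200619-35200666), 1.36 kb past the start, was the single site of the 7 loci found in cDC2 alone. It stood at 35.2 and 8.54 in KO cDC2 and at 64.4 and 34.3 in WT cDC2. Among all deposited summits 1 cDC1 library had a summit 61 bp away, so the pattern rests on a summit of low rank. When each summit was given to its nearest gene alone, Tnf had 2 and 3 summits in KO cDC2 and 3 and 3 in WT cDC2, against 1 and 1 in KO cDC1 and 1 and 2 in WT cDC1 (difference 0.75, adjusted p = 0.0234). The direction of the Tnf count thus depended on how summits were assigned. The start of Tnf ranked lower in cDC2, and more summits were nearest to Tnf in cDC2.

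Ltb encodes lymphotoxin beta, which anchors lymphotoxin at the cell surface and is needed for lymphoid organ structure. Tnf/Lta/Ltb site 12 (chr17:35194433-35194673), at the Ltb start, stood at 59.2 and 45.8 in KO cDC2 and at 45.7 in WT cDC2 replicate 2, with none in replicate 1. It stood at 24.4 and 36.2 in KO cDC1 and at 40.3 and 10.01 in WT cDC1. The cDC1 values lay below the 3 cDC2 values. With the missing summit at the bottom rank the difference had the other sign and did not pass (-0.43, SE 0.942, adjusted p = 0.753), so no direction is given. A minor summit 0.487 kb past the start, site 13, was found at 5.98 in KO cDC2 replicate 2 and at 10.3 in KO cDC1 replicate 1. Site 14 (chr17:35195488-35195821), also inside Ltb, stood at 57.1 and 14.3 in KO cDC2 and 56.8 and 71.4 in WT cDC2. It stood at 75.9 and 75.5 in KO cDC1 and at 71.5 and 74.8 in WT cDC1. Site 14 chains summits at unlike positions, and the best of them gives the value of a library. WT cDC2 replicate 2 took its value from 35195821, and its summit at 35195573 stood at 2.95. KO cDC2 replicate 2 took its value from 35195779. KO cDC2 replicate 1 and KO cDC1 replicate 1 took theirs from 35195544, and WT cDC2 replicate 1 from 35195512. Site 14 was lower in cDC2 (difference -0.69, SE 0.224, adjusted p = 0.0248 in limma), by a gap that was narrow between WT cDC2 replicate 2 and WT cDC1 replicate 1. That call was lost without KO cDC2 replicate 2, without WT cDC2 replicate 1 and without any 1 of the 4 cDC1 libraries, with adjusted p between 0.0612 and 0.119. It was also lost with chaining within 500 bp (adjusted p = 0.0529) and with missing summits at the bottom rank (0.125). Lta, for lymphotoxin alpha, had no summit within 1 kb of its start in any library.

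The other called sites of that locus lay in neighbouring genes of the class III region of the major histocompatibility complex. Site 1 (chr17:35164865-35165128) in Prrc2a was the best ranked of the locus. It stood at 90.9 and 89.6 in KO cDC2 and 80.3 and 83.6 in WT cDC2, against 95.7 and 96.0 in KO cDC1 and 92.1 and 94.7 in WT cDC1 (difference -0.52, SE 0.108, adjusted p = 0.00149). Site 2 (chr17:35172585-35172699) in Aif1, which encodes an actin-binding protein of macrophages, stood at 46.7 and 32.1 in KO cDC2 and 36.1 and 31.5 in WT cDC2. It stood at 76.3 and 71.9 in KO cDC1 and at 69.8 and 61.8 in WT cDC1 (difference -0.88, SE 0.211, adjusted p = 0.0044). At both sites all cDC2 libraries lay below all cDC1 libraries and the call held in the 13 alternatives that gave a value. Site 3 (chr17:35173370-35173497), also in Aif1, was found in cDC1 alone, at 23.9 and 28.0 in KO and 42.9 and 33.0 in WT.

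Sites 28 and 29, inside Ddx39b, which encodes an RNA helicase of mRNA export, were less secure. Site 28 (chr17:35241719-35241773) averaged 71.9 ± 5.44 in cDC2 and 84.6 ± 3.09 in cDC1 (SD, n = 4, difference -0.44, SE 0.136, adjusted p = 0.0204). Its call was lost without KO cDC2 replicate 2, WT cDC2 replicate 2, KO cDC1 replicate 1, WT cDC1 replicate 1 or WT cDC1 replicate 2 (adjusted p between 0.0508 and 0.0956). Site 29 (chr17:35242703-35242792) averaged 41.4 ± 16.7 in cDC2 and 65.8 ± 2.33 in cDC1 (difference -0.63, SE 0.214, adjusted p = 0.0312). There KO cDC2 replicate 1, at 64.4, lay within the cDC1 range, and the call was lost without KO cDC2 replicate 2, WT cDC2 replicate 2 or any 1 cDC1 library (adjusted p between 0.0527 and 0.112). Site 22 (chr17:35219731-35219902), 14.2 kb from Lta on the side away from Tnf, had summits at 64.9 and 39.4 in KO cDC2 and 53.4 and 50.6 in WT cDC2. Of the cDC1 libraries KO replicate 1 alone had a summit there, at 22.1. With missing summits at the bottom rank it was higher in cDC2 (3.48, SE 0.822, adjusted p = 0.0247). That value rests in large part on the bottom ranks given to the other cDC1 libraries. Of the 10 tested sites here, the 4 that did not pass had differences between -0.21 and 0.16.

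The interleukin-1 genes Il1b and Il1a lie next to each other on chromosome 2, and in each the starts of the genes carried few summits. Il1b (chr2:129364569-129371164) had a site at its start, site 8 (chr2:129371105-129371211), in KO cDC2 replicate 1 at 32.7, in KO cDC1 replicate 1 at 30.8 and in WT cDC1 replicate 2 at 13.1. The other 5 libraries had none there. The best-ranked Il1b site was site 9 (chr2:129373391-129373560), 2.31 kb beyond the 5′ end of the span. It stood at 86.7 and 82.2 in KO cDC2, 91.7 and 83.7 in WT cDC2, 80.5 and 85.0 in KO cDC1, and 88.7 and 89.6 in WT cDC1. The subsets overlapped there (86.1 ± 4.18 in cDC2 and 86.0 ± 4.15 in cDC1, difference 0.0097, SE 0.122, adjusted p = 0.962).

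On the other side of Il1b, site 7 (chr2:129360201-129360349), 4.29 kb past the 3′ end of the gene, separated the subsets. It stood at 29.2 and 50.0 in KO cDC2 and 41.6 and 9.8 in WT cDC2. It stood at 73.2 and 81.3 in KO cDC1 and at 86.8 and 82.5 in WT cDC1. No cDC2 library reached a cDC1 library (32.6 ± 17.4 in cDC2 and 81.0 ± 5.68 in cDC1, difference -1.40, SE 0.233, adjusted p = 0.000199), and the call held in the 13 alternatives that gave a value. Il1b site 13 (chr2:129387817-129388105), 16.8 kb upstream, was found in cDC1 alone, at 42.6 and 1.31 in KO and 29.6 and 14.4 in WT. Site 1 (chr2:129315939-129316054), between the genes, stood at 74.3 and 36.2 in KO cDC2 and 64.7 and 54.3 in WT cDC2, against no summit in KO cDC1 and 10.2 and 32.1 in WT cDC1. With missing summits at the bottom rank it was higher in cDC2 (2.79, SE 0.412, adjusted p = 0.0041). That value rests in part on the bottom ranks given to both KO cDC1 libraries.

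Il1a (chr2:129299609-129310186) held the best-ranked site of all 7 loci. Il1a site 3 (chr2:129297264-129297317), 2.32 kb past the 3′ end, stood at 98.1 and 97.9 in KO cDC2 and 96.3 and 94.6 in WT cDC2, against 97.7 and 99.0 in KO cDC1 and 99.3 and 98.9 in WT cDC1. The difference was small (-0.39, SE 0.122, adjusted p = 0.0228) and the subsets overlapped. It was lost without KO cDC2 replicate 2, WT cDC2 replicate 2, KO cDC1 replicate 2 or WT cDC1 replicate 1 (adjusted p between 0.0606 and 0.0999). At the start of Il1a, site 7 (chr2:129310008-129310212) had summits in WT cDC1 only, at 26.4 and 1.78. Il1a site 6 (chr2:129306140-129306217), inside the gene, averaged 70.1 ± 11.2 in cDC2 and 64.3 ± 3.62 in cDC1 (SD, n = 4) and did not pass (adjusted p = 0.437).

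**Figure D3:**
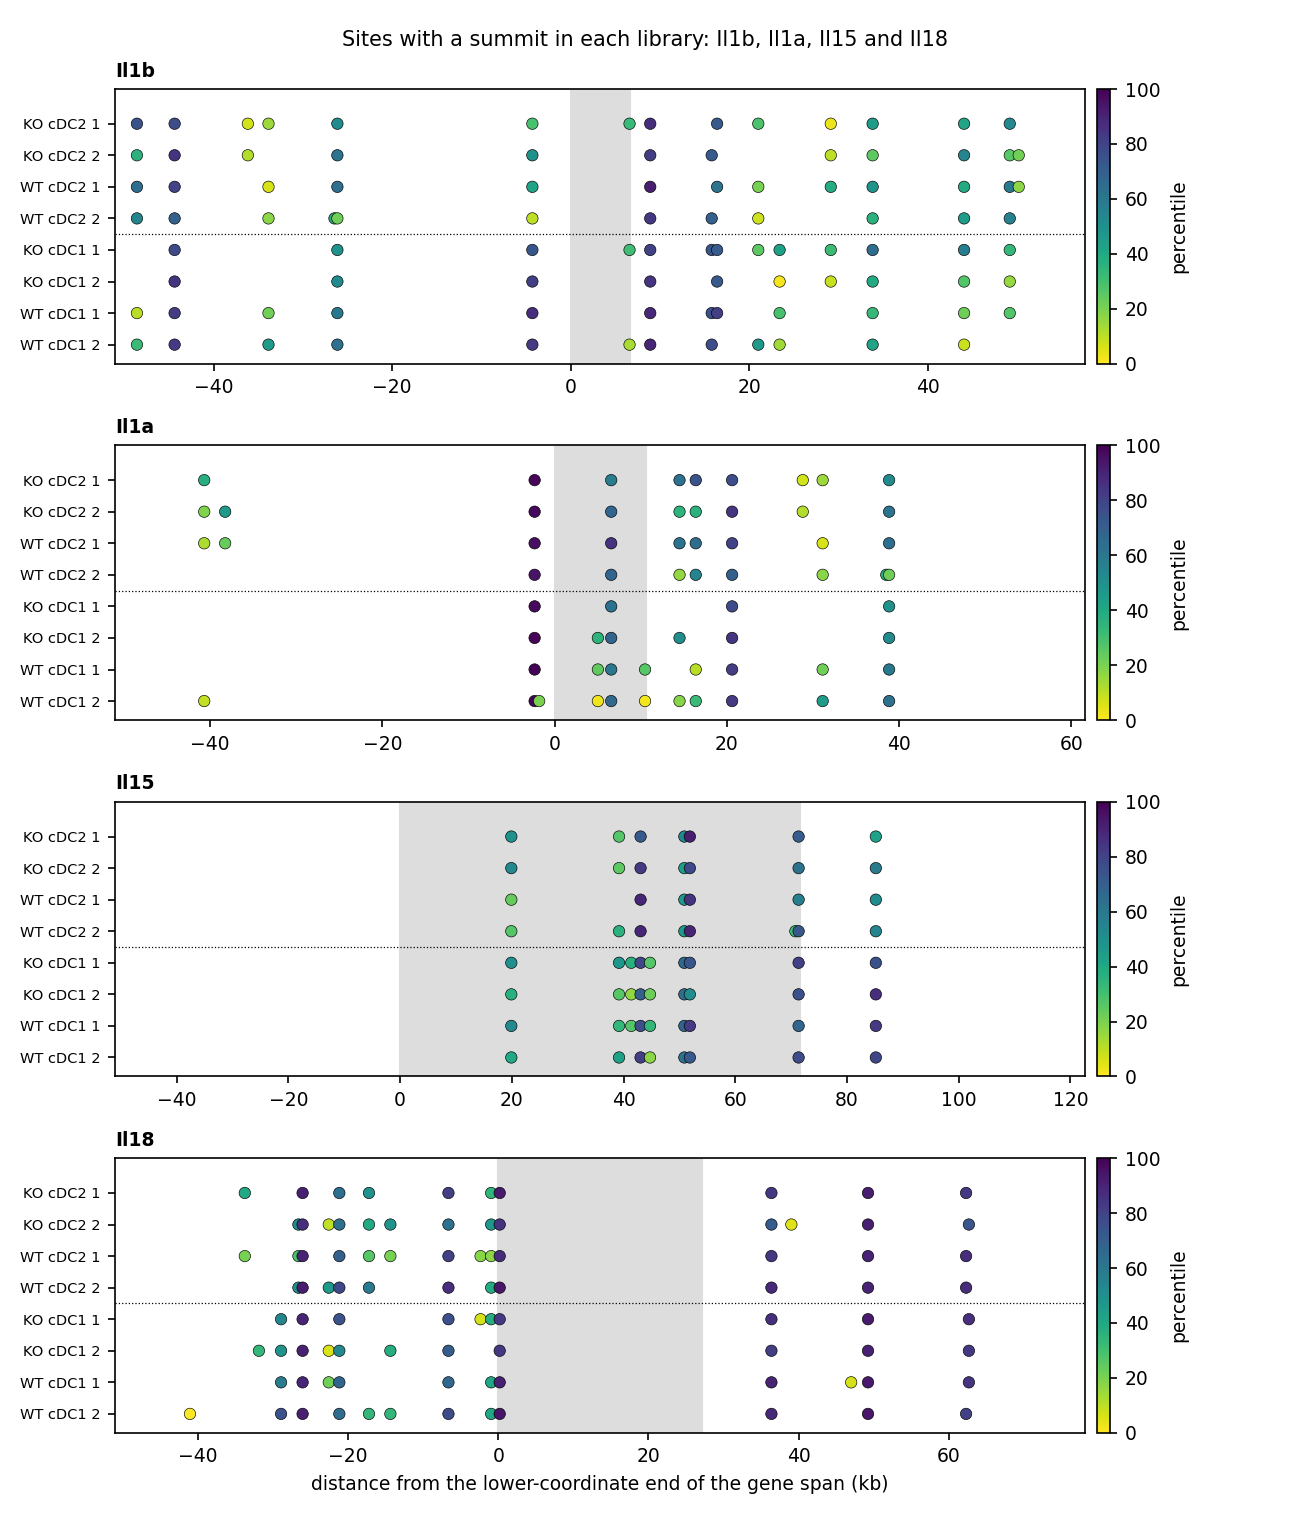
Sites with a summit at Il1b, Il1a, Il15 and Il18 in each library, drawn as in the map of Il6, Il10 and Tnf/Lta/Ltb (x axis: distance in kb from the lower-coordinate end of the grey gene span, colour: percentile within the library). Il1b site 7, just left of the span, is pale in cDC2 (mean 32.6) and dark in cDC1 (mean 81.0), and the darkest column is Il1a site 3, left of its span, at 94.6 or more in every library.

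The map of Il1b, Il1a, Il15 and Il18 shows no summit inside Il18 other than at its start, while most sites of the Il15 window lie inside the gene. Il15 (chr8:82331624-82403252) had sites that moved in opposite directions. Il15 site 10 (chr8:82416760-82416839), 13.5 kb beyond the higher-coordinate end, stood at 42.2 and 58.3 in KO cDC2 and 52.0 and 54.6 in WT cDC2. It stood at 75.4 and 87.4 in KO cDC1 and at 83.2 and 78.7 in WT cDC1. The subsets did not overlap (difference -0.85, SE 0.169, adjusted p = 0.00098) and the 13 alternatives that gave a value kept the call. Il15 site 7 (chr8:82383480-82383524), inside the gene, stood at 91.4 and 77.8 in KO cDC2 and 85.2 and 90.0 in WT cDC2, against 73.4 and 51.5 in KO cDC1 and 82.4 and 72.3 in WT cDC1. It was higher in cDC2 (difference 0.57, SE 0.159, adjusted p = 0.0115), with WT cDC1 replicate 1 inside the cDC2 range. That call was lost without KO cDC2 replicate 1, WT cDC2 replicate 2, KO cDC1 replicate 2 or WT cDC1 replicate 2 (adjusted p between 0.0551 and 0.0758), and with missing summits at the bottom rank (0.0897). Next to it, Il15 site 6 (chr8:82382442-82382589) stood at 47.8 ± 4.5 in cDC2 and 65.2 ± 2.51 in cDC1 (SD, n = 4), without overlap and without passing (adjusted p = 0.0924). It passed with all deposited summits (-0.55, adjusted p = 0.0318) and with missing summits at the bottom rank (-0.45, adjusted p = 0.0357).

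Il15 site 5 (chr8:82376306-82376423), inside the gene, was found in cDC1 alone, at 26.6 and 22.4 in KO and 33.7 and 17.3 in WT. The best-ranked Il15 site was site 4 (chr8:82374647-82374705), with 83.6 ± 7.99 in cDC2 and 76.6 ± 5.03 in cDC1 (difference 0.28, SE 0.133, adjusted p = 0.12). Il18 (chr9:50554700-50581841) had no site past the threshold by rank. Its start, site 14 (chr9:50554871-50554913), also lies in the overlapping gene Bco2. It stood at 93.3 and 85.5 in KO cDC2, 87.6 and 93.9 in WT cDC2, 83.2 and 84.0 in KO cDC1, and 91.1 and 94.6 in WT cDC1. It was a high-ranked site in every library and the subsets overlapped (difference 0.085, SE 0.126, adjusted p = 0.65). Site 13, 0.945 kb upstream, was found in 7 libraries, with 34.3 ± 12.3 in cDC2 (SD, n = 4) and 39.6 ± 1.57 in cDC1 (n = 3). The best-ranked site was site 18 in the neighbour Timm8b, at 90.9 ± 0.654 in cDC2 and 92.6 ± 1.33 in cDC1 (adjusted p = 0.424). Il18 site 4 (chr9:50525750-50525808) in Pts, 28.9 kb upstream, was found in cDC1 alone, at 53.6 and 48.7 in KO and 58.3 and 75.2 in WT.

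**Figure D4:**
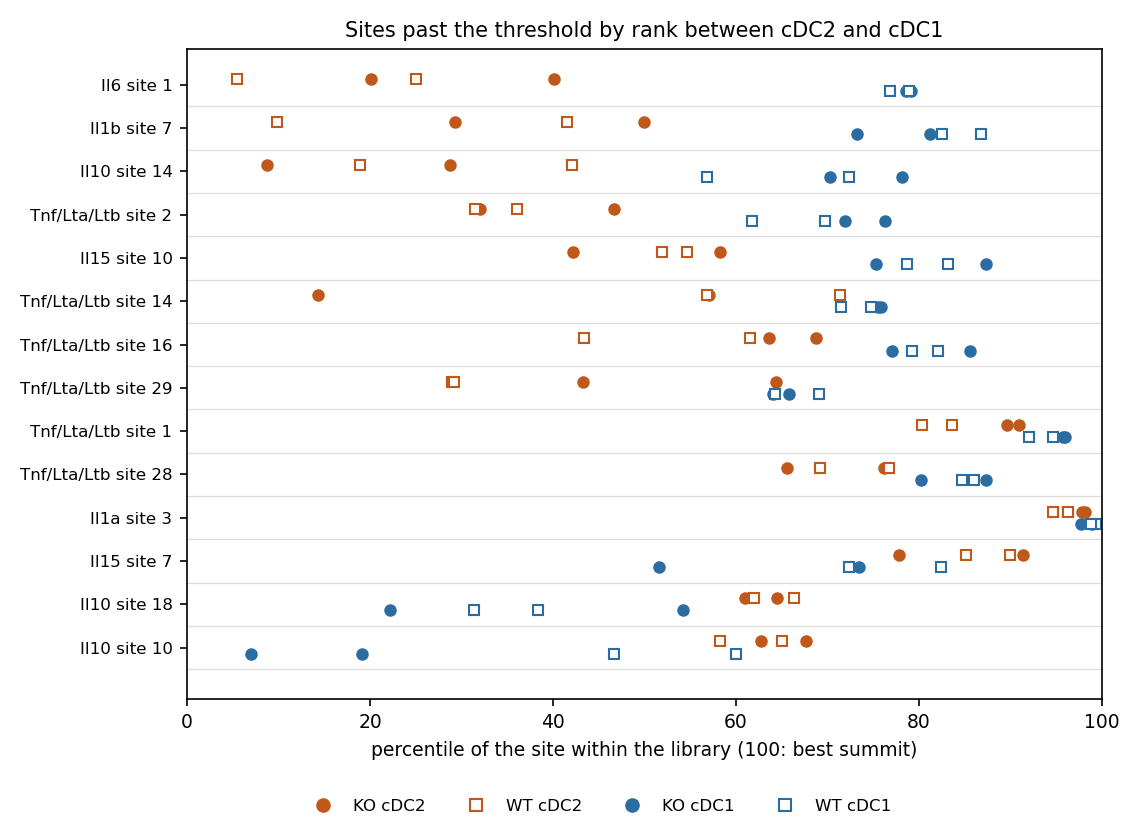
Percentile of each library at the 14 sites past the threshold by rank between cDC2 and cDC1 (x axis: percentile within the library, 100 for the best summit), ordered from the most negative difference in normal score at the top to the most positive. Orange points are cDC2 and blue points cDC1, filled for KO and open for WT. The 3 lowest rows (Il15 site 7, Il10 site 18 and Il10 site 10) are higher in cDC2 and the 11 above are lower.

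The plot of the 14 called sites is ordered by the difference in normal score, which was largest in size at Il6 site 1, Il1b site 7 and Il10 site 14. Of the sites at gene starts, those of Il6, Tnf and Il18 were tested by rank, and the one at Tnf was called. Those of Ltb, Il1b and Il1a lacked a summit in some libraries and could not be among the 14. The starts of Il10 and Il15 were not placed here. Il15 site 9, inside the gene near its higher-coordinate end, was found in all 8 libraries and did not pass (difference -0.27, adjusted p = 0.208 in limma).

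Whether loss of Hdac1 altered these loci was the second comparison, over both subsets. Hdac1 is a histone deacetylase, which takes acetyl groups off histone tails and is commonly found in corepressor complexes. None of the 9 members passed in limma for KO minus WT (1 at an unadjusted p under 0.05), and of all genes tested 0% did, with 1259 of 17729 at an unadjusted p under 0.05. Il6 averaged 7 ± 1.41 summits in KO libraries against 8.25 ± 2.63 in WT libraries (SD, n = 4, adjusted p = 0.872). For Il10 the means were 10.25 ± 1.26 in KO libraries against 11.5 ± 2.08 in WT libraries (adjusted p = 0.938). For Tnf/Lta/Ltb they were 20 ± 1.41 in KO libraries against 19.5 ± 1.91 in WT libraries (adjusted p = 0.982). Il1b, Il15 and Il18 had adjusted p of 0.953 or more. The member with an unadjusted p under 0.05 was Il1a, with 7 ± 2.45 in KO and 9 ± 1.41 in WT (difference -0.37, SE 0.153, adjusted p = 0.681). Within cDC2 its counts were 9 and 9 in KO against 9 and 8 in WT, and within cDC1 4 and 6 in KO against 8 and 11 in WT. The test of that difference between the subsets gave 0.89 (SE 0.306) and did not pass (adjusted p = 1). With all deposited summits KO cDC1 had 7 and 14 at Il1a, against 10 and 11 in WT cDC1, so the groups overlapped.

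No site of the loci was found in KO alone or in WT alone, patterns held by 0.0836% and 0.0694% of all sites. By rank, 0 of the 39 sites passed for KO minus WT, against 0.00675% of all sites, and 0 for the difference of the genotype effects, against 0% of all. At an unadjusted p under 0.05 in limma were 6 of the 39 for KO minus WT, and 3593 of all 29645 sites. For the difference of the genotype effects 2 of the 39 were, and 1315 of all 29645. The lowest adjusted p at the 39 sites was 0.276. Over all settings, the reported one included, 0 of 1120 such tests at sites overlapping these passed, the lowest adjusted p being 0.121. The lowest unadjusted p for KO minus WT was at Tnf/Lta/Ltb site 1, with the values in Prrc2a given above. Il10 site 10 had the lowest for the difference of genotype effects. At that site KO cDC1 libraries, at 19.1 and 7.01, lay below WT cDC1 libraries, at 46.7 and 60.0, while KO cDC2 and WT cDC2 overlapped (interaction 1.35, adjusted p = 0.997). A set of 4 sites had summits in both libraries of 1 group and in none of the 6 others. Il10 sites 5 and 6 and Il1a site 7 did so in WT cDC1, and Il1b site 3 in KO cDC2, at 6.77 and 11.4. Such patterns were held by 1.05% of all sites in WT cDC1 and 0.929% in KO cDC2, and those of WT cDC2 and KO cDC1, with no site here, by 0.789% and 0.692%. Il10 site 5 (chr1:131016029-131016083) stood at 22.8 and 24.4, and Il10 site 6 (chr1:131017227-131017335) at 46.6 and 34.0.

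Genes of the same families and pathways were looked at in 8 lists, of which 90 genes were tested. Between the subsets 8 of the 90 passed, 4 higher and 4 lower in cDC2, against 11.8% of all genes tested. At an unadjusted p under 0.05 in limma were 31 of the 90, and 5012 of all 17729 genes. The lists of the interleukin-1 family and its processing (11 genes tested, median difference -0.13), the interleukin-10 family (6, median 0.34), the gp130 family around interleukin-6 (9, median -0.069) and the neighbours at Tnf (12, median -0.17) had 0 called. Of 5 common gamma chain cytokines (median 0.25) 2 were higher and 1 lower. Il2, the T cell growth factor, had 7 and 6 summits in KO cDC2 and 5 and 6 in WT cDC2, against 2 and 2 in KO cDC1 and 1 and 2 in WT cDC1 (difference 1.36, SE 0.156, adjusted p = 0.000858). Il2 passed in all 17 alternatives that gave a value, and was the only listed gene that did. Il9, a cytokine of mast cell and T helper responses, averaged 7.25 ± 0.5 in cDC2 and 4.75 ± 0.957 in cDC1 (SD, n = 4, 0.53, adjusted p = 0.0212). Il4, which directs type 2 immunity, averaged 4.5 ± 0.577 in cDC2 and 7 ± 1.83 in cDC1 (-0.52, adjusted p = 0.0339), and turned direction with 10 kb on both sides (0.40). The Il9 call was lost without KO cDC2 replicate 1 or 2, WT cDC2 replicate 1, KO cDC1 replicate 1 or WT cDC1 replicate 1 (adjusted p between 0.0508 and 0.0693). It was also lost with all deposited summits (0.42, adjusted p = 0.133), in the best 30868 (0.54, adjusted p = 0.0617) and with 10 kb (0.29, adjusted p = 0.417). The Il4 call was lost without KO cDC2 replicate 1, WT cDC2 replicate 2, KO cDC1 replicate 1 or 2 or WT cDC1 replicate 1 (adjusted p between 0.0554 and 0.103), and in the best 30868 summits (-0.15, adjusted p = 0.677).

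Of 15 further ligands of the TNF superfamily (median -0.084) 1 was higher and 1 lower. Tnfsf10, for the death ligand TRAIL, averaged 5.75 ± 0.5 in cDC2 and 3.25 ± 0.957 in cDC1 (0.69, adjusted p = 0.0289), but differed by -0.0073 with all deposited summits. Eda, for ectodysplasin, averaged 4.25 ± 0.957 in cDC2 and 6.75 ± 0.5 in cDC1 (-0.58, adjusted p = 0.0195). Of 16 receptors of the members (median 0.024) only Il15ra, whose product presents interleukin-15 to neighbouring cells, passed. Il15ra had 9 and 8 summits in KO cDC2 and 9 and 9 in WT cDC2, against 13 and 12 in KO cDC1 and 15 and 14 in WT cDC1 (-0.57, SE 0.118, adjusted p = 0.0139). The subsets did not overlap, and no single library ended that call, but it was lost with 10 kb (adjusted p = 0.0944) or 100 kb (0.113) on both sides, with the nearest gene (0.0548) and in the best 30868 summits (0.136). Of 16 regulators of cytokine mRNA and NF-kB (median 0.016), Rc3h1, for the mRNA-decay protein roquin-1, averaged 6.25 ± 0.5 in cDC2 and 4.25 ± 0.5 in cDC1 (0.47, adjusted p = 0.0387). Adam17, for the protease that sheds Tnf from the membrane, averaged 9.75 ± 0.5 in cDC2 and 13.75 ± 0.957 in cDC1 (-0.46, adjusted p = 0.0349). Left out 1 at a time, 3 libraries ended the call of Tnfsf10 (KO cDC2 replicate 2, KO cDC1 replicate 2 and WT cDC1 replicate 2, adjusted p between 0.0676 and 0.0711). WT cDC2 replicate 2 and KO cDC1 replicate 1 ended that of Eda (adjusted p of 0.05, just above the threshold, and 0.0561), and in the best 30868 summits its difference was 0 (adjusted p = 1). Tnfsf10 also lost its call with the nearest gene (0.33, adjusted p = 0.357), with 10 kb (0.29, adjusted p = 0.417) and without the rounding variance (adjusted p = 0.0742). Adam17 lost its call without any 1 of the 8 libraries (adjusted p between 0.0561 and 0.109). It also lost it with all deposited summits (adjusted p = 0.118), in the best 30868 (-0.22, adjusted p = 0.442) and with 100 kb (-0.31, adjusted p = 0.105). Rc3h1 lost it without KO cDC2 replicate 1 or 2, WT cDC2 replicate 2, KO cDC1 replicate 1 or WT cDC1 replicate 1 or 2 (adjusted p between 0.0843 and 0.122), and with the nearest gene (adjusted p = 0.146), 10 kb (0.31, adjusted p = 0.304) or no filter on low genes (adjusted p = 0.0515). Rc3h1 also turned direction with all deposited summits (-0.092) and with 100 kb on both sides (-0.099). For KO minus WT and for the difference of genotype effects 0 of the 90 genes passed in limma, with 8 and 1 at an unadjusted p under 0.05. Of all 17729 genes, 1259 and 738 were at an unadjusted p under 0.05 in these contrasts.

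Genes elsewhere in the genome with the most similar counts over the 8 libraries were found by Pearson correlation of log2(summits + 1), given as a description with no test. For Il6 these were Crhr2 (0.970), Zfp648 (0.968) and Rock1 (0.966) out of 14508 genes, of which 26 were above 0.95. Crhr2 had 5 and 4 summits in KO cDC2 and 4 and 4 in WT cDC2, against 9 and 6 in KO cDC1 and 10 and 9 in WT cDC1. For Il10 they were Gm5431 (0.979), Faf1 (0.947) and Cdk12 (0.943), and for Tnf/Lta/Ltb Rab8a (0.962), Usp16 (0.942) and Mal (0.942). Above 0.95 there was 1 gene of 14494 for Il10 and 1 of 14610 for Tnf/Lta/Ltb. Each correlation rests on 8 points of few whole-number values.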

How the data were processed

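The authors deposited 1 list of summits per ATAC-seq library, 8 in all, whose score is taken here, from its lowest values, as the −log10 of a q-value of the peak caller. Bowtie2, SAMtools, MACS2 and MultiQC, and build GRCm38 (mm10), are named per the submitters' processing notes. Versions, settings and read depth are not given in the sources used here. Scores rise with depth, so each list was cut to its best 61737 summits and only ranks were compared.

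Summits in each protein-coding span and 50 kb on both sides were counted, and genes with a mean of at least 1 were tested as log2(summits + 1) in limma 3.58.1 (R 4.3.3), with a rounding variance of 0.0833 squared summits added. Summits within 250 bp were chained into sites, and sites in all 8 libraries were tested on the normal score of the rank in limma with a variance trend. Both fits held 4 groups of 2 libraries, with 3 contrasts (cDC2 minus cDC1, KO minus WT, and their interaction) and Benjamini-Hochberg adjusted p over all features at 0.05. Both were also run on simulated data, with outcomes not given here. The alternatives were list length, flank, nearest gene, pseudocount, filter, variance model, chaining distance and missing summits at the bottom rank. Further ones were a score of at least 3 in the deposited lists, a replicate block and leaving out each library.

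Every member is named, with sites of 1 subset, sites past the threshold, the best-ranked site of each locus and sites within 1 kb of a start, and listed genes past the threshold. The sites within 1 kb of a start leave out Il10 and Il15, whose starts were not placed. Sites that fall outside this rule were chosen after their values were seen. Members and gene lists were chosen with earlier results of these data known.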

Additional observations from a re-analysis of the deposited data

Results flagged for a closer look

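In 92 groups of 4 libraries, 3 had a library that stood apart by Dixon's test. For continuous values chance gives this in about 1 in 20 groups, a rate that does not hold for small whole-number counts. At Il1a, WT cDC2 replicate 2 had 8 summits and the other cDC2 libraries 9 each. At Il15, WT cDC1 replicate 2 had 8 summits and the other cDC1 libraries 9 each. In both, the gap was 1 summit, and the tie among the other libraries put the ratio at its highest whatever the gap. At Il6 site 12, 16.2 kb past the 3′ end of Il6, KO cDC1 replicate 1 stood at percentile 75.02, and the other cDC1 libraries at 66.0, 65.9 and 66.8.

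Of 46 results, 1 had genotype effects of opposite direction in the subsets. Il18 site 18, in Timm8b, stood at 91.6 and 91.3 in KO cDC2 against 90.4 and 90.3 in WT cDC2, and at 92.7 and 90.8 in KO cDC1 against 93.2 and 93.8 in WT cDC1. The test of that difference gave 0.19 in normal score and did not pass in limma (adjusted p = 0.997).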

How the results depend on the processing

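Genes called between cDC2 and cDC1 numbered 2086, and stayed within 1.5 times of that in 19 alternatives. Genes called for KO minus WT (0) became 10 with all deposited summits, 6 with the nearest gene, 7 with 10 kb, 3 with 100 kb, 3 with a pseudocount of 0.5, 16 without the rounding variance and 0 to 17 on leaving out a library. The interaction (0) gave 0 to 2 on leaving out a library. Sites called by rank between the subsets (8229) became 4060 in the best 30868 summits of each list and 19329 with missing summits at the bottom rank. For KO minus WT (2) they became 5 with all deposited summits, 270 at the bottom rank and 0 to 55 on leaving out a library, and for the interaction (0) 129 and 0 to 2. No summit count of the members and no member site found in all 8 libraries passed for genotype or interaction in any alternative. Sites of the loci missing from some libraries were not looked at by rank for these contrasts. Tnf turned to 0.75 with the nearest gene, Tnfsf10 to -0.0073 and Rc3h1 to -0.092 with all deposited summits, Rc3h1 to -0.099 with 100 kb and Il4 to 0.40 with 10 kb. The cause was not tested. Sites found in cDC2 alone (2719) became 1714 with all deposited summits, 1666 in the best 30868 and 1683 at a score of at least 3. In the loci that count (1) became 0 in each of these, and 1 to 2 on leaving out a library. The last summit kept in the main lists scored 1.31 in WT cDC2 replicate 2 and 3.56 or more in the other libraries. A score of at least 3 in the deposited lists was thus looser than the main cut in those other libraries, and left lists of unequal length. Sites found in cDC1 alone (4865) became 2494 in the best 30868, and in the loci (7) 12 with all deposited summits and 11 at a score of at least 3. Sites in KO alone (94) became 288 with all deposited summits, 271 at a score of at least 3 and 179 to 273 on leaving out a library. Those in WT alone (78) became 34 with all deposited summits, 43 in the best 30868, 35 at a score of at least 3 and 132 to 217 on leaving out a library. In the loci both (0) gave 0 to 1 on leaving out a library. The deviations of same-numbered libraries from their group means correlated at 0.00389 to 0.0644 over 17729 genes. With 2 libraries per group and small counts, these values do not settle whether the numbers pair the libraries. With a replicate block 2460 genes were called between the subsets and 6 for KO minus WT, 85 for the interaction with the block within genotype, and 10 sites by rank for KO minus WT. Read depth is unknown, so a missing summit may reflect depth.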

Other observations

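Il20 and Il24, neighbouring genes of the interleukin-10 family, had the lowest p-values for KO minus WT among the listed genes, and are named after their values were seen. Il20 had 4 and 4 summits within 50 kb in KO cDC2 and 2 and 4 in KO cDC1, against 2 and 2 in WT cDC2 and 1 and 1 in WT cDC1 (difference 0.85, adjusted p = 0.258 in limma). Their windows share summits, and Il24 had the same counts as Il20 except for 3 in WT cDC2 replicate 2 (difference 0.74, adjusted p = 0.364). Neither passed the threshold.

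Next to Il10 site 14, Il10 site 16 (chr1:131053392-131053503) had low-ranked summits in cDC2, at 1.13 in KO replicate 1 and at 3.21 and 8.37 in WT. In cDC1 it stood at 23.8 and 59.4 in KO and at 58.9 in WT replicate 1. The 2 libraries without a summit were KO cDC2 replicate 2 and WT cDC1 replicate 2. With these at the bottom rank site 16 did not pass in limma (-1.32, SE 1.11, adjusted p = 0.394). In Pts, Il18 site 5 (chr9:50528085-50528098) had summits in cDC2 libraries only, at 52.4 in KO replicate 2 and at 28.2 and 49.7 in WT.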
